A study of Homo sapiens with 22 samples.

Results

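Integrin genes were examined in HT1080 cells, an established human fibrosarcoma line, in which lysine deacetylase 6 (KDAC6, gene HDAC6) or 8 (KDAC8, gene HDAC8) had been made catalytically inactive by a point mutation or exposed to an inhibitor. The genes were chosen by name, as the rows for ITGA2, ITGA3, ITGA5, ITGA6, ITGAV, ITGB1, ITGB3, ITGB4, ITGB5 and ITGB8, which are 10 of the 26 integrin subunit genes among the 60675 genes of the count table. RNA was sequenced from 22 libraries in 6 groups. The groups were unedited wild-type (WT) cells (n = 4), the KDAC6H216A line with the first catalytic domain of KDAC6 inactivated (n = 4), the KDAC6H611A line with its second catalytic domain inactivated (n = 4), the KDAC8H143A line (n = 4), WT cells given 1 µM Tubastatin A for 2 days (n = 3) and WT cells given 5 µM PCI-34051 for 2 days (n = 3). Tubastatin A is a reported inhibitor of KDAC6 and PCI-34051 of KDAC8. The lines were made by CRISPR/Cas9 editing and grown from single colonies, so a line stands for few editing events, and the KDAC6H216A samples came from several independently derived lines pooled together. The KDAC8H143A line also carries an unplanned base insertion in an intron. No group that received only the vehicle of an inhibitor was named.

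Integrins are receptors of the cell surface made of 1 alpha and 1 beta chain, and the pairing sets which matrix protein is bound. The beta 1 chain pairs with many alpha chains, to form receptors for collagen (with alpha 2), laminin (with alpha 3 or alpha 6) and fibronectin (with alpha 5). The alpha v chain pairs with beta 1, beta 3, beta 5 or beta 8 and binds proteins with an RGD motif such as vitronectin and fibronectin, and the beta 4 chain pairs only with alpha 6 and links laminin to intermediate filaments in hemidesmosomes. In fibrosarcoma cells, which are of mesenchymal origin, these receptors carry attachment, spreading and migration.

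Library totals ran from 5248960 to 29862658 counts and were highest in the 2 inhibitor groups (24315844 to 29862658, against 5248960 to 8998521 in WT). Mitochondrial ribosomal RNA made up 20.8 to 23.9% of the counts in WT, 0.195 to 15.1% in KDAC6H216A, 0.173 to 38.0% in KDAC6H611A and at most 0.0259% in KDAC8H143A and the inhibitor groups, so that depth and the removal of this RNA cannot be told apart from the group in the KDAC8H143A and inhibitor comparisons. Taking the genes of the mitochondrial genome out before scaling left the number of integrin genes called in each comparison as it was. In KDAC6H216A, replicate 1 (0.195% mitochondrial ribosomal RNA) had the lowest level of its group for 8 of the 10 integrin genes, and in KDAC6H611A, replicate 2 (38.0%) had the lowest for 9 of 10. The sum of 5 mesenchymal markers moved with the groups. It was 3804 to 4568 CPM (counts scaled to a common library total) in WT, 2834 to 5134 in KDAC6H216A, 2176 to 3981 in KDAC6H611A, 2911 to 3768 in KDAC8H143A, 6287 to 6637 under Tubastatin A and 6089 to 6455 under PCI-34051. Of the 4 tested, 3 were called higher and 1 lower with each inhibitor and 3 lower in KDAC6H611A, and their part in the integrin results was not tested. Summed epithelial markers stayed at or below 0.562 CPM, leukocyte markers at or below 0.778 CPM and endothelial markers at or below 4.86 CPM. A point mutation cannot be seen in gene counts. HDAC8 was at a mean of 12.02 to 14.4 CPM in the 6 groups, with no call against WT. HDAC6 was lower in KDAC6H216A (6.26 ± 0.718 CPM, SD, n = 4) than in WT (13.6 ± 3.35, n = 4, edgeR adjusted p = 0.0054).

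Promoter windows from RefSeq (build GRCh38.p14, 250 bases before to 50 after a transcript start) were at hand for 7 of the 10 genes, in 12 windows. Windows of ITGA2 and ITGB1 are shown because their transcript levels were the most alike of any pair of these genes across libraries, and a window of ITGA6 because its level went the other way in the inhibitor groups. Capitals mark matches on either strand to GGGCGG, the Sp1 motif, which was present in 44.95% of the 35116 RefSeq promoter windows of the same length. Capitals also mark TATAAA, the core promoter box that lies upstream of some starts, which was present in 11.53% of them. No match overlapped another in the windows shown. The AP-1 motif TGANTCA, found in 7.709% of all windows, was in none of those shown and had 1 match in the ITGA5 window.
ITGA2, chr5:52989102-52989401, plus strand: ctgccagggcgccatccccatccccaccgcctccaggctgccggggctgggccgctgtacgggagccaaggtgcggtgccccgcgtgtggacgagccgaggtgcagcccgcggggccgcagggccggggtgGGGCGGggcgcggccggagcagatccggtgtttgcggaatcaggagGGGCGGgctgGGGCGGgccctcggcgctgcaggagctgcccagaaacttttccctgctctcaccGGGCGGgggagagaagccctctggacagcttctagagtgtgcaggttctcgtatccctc
ITGB1, chr10:32958181-32958480, minus strand: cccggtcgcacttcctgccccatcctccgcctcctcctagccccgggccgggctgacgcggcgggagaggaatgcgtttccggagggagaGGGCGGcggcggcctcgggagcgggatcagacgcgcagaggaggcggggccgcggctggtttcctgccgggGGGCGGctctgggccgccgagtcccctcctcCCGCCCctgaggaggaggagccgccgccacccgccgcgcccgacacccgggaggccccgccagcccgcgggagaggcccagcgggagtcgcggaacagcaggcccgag
ITGA6, chr2:172427086-172427385, plus strand: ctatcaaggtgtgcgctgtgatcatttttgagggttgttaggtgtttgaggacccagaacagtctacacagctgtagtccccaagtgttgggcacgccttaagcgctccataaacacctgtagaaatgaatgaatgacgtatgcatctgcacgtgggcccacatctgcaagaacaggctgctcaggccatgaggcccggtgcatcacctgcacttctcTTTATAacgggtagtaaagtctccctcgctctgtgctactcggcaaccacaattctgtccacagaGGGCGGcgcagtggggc
The ITGA2 window held 4 matches to the Sp1 motif, the ITGB1 window 3 and the ITGA6 window 1, and of the 3 the ITGA6 window alone held the other box. Other windows of the same genes differed. The second ITGA6 window held 3 matches to the Sp1 motif and 0 to the box, and the second ITGB1 window 0 and 3, so the contrast is between these windows and not between the genes. These are matches of letters and say nothing of binding.

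To see which subunits make up the repertoire of WT cells, levels were compared between genes per kilobase of exon. In WT, ITGA3 (a mean of 121.3 CPM per kb) and ITGA6 (103.3), both laminin-binding alpha chains, were highest and their ranges overlapped. They were followed by ITGB1 (70.01), ITGA2 (48.3), ITGA5 (35.3), ITGB5 (23.5), ITGAV (4.67), ITGB3 (1.35), ITGB4 (0.475) and ITGB8 (0.370), each clear of the next over its 4 libraries. ITGA3 stayed highest in all 6 groups, with a range clear of the second gene in KDAC6H611A, KDAC8H143A and both inhibitor groups. ITGB3 was below ITGAV in WT, at the end of the order in KDAC6H611A (0.665, overlapping ITGB8 at 0.676) and above ITGAV with Tubastatin A (17.1) and PCI-34051 (20.1). Part of this order rests on the length used. With the length of the MANE Select transcript, ITGB1 (272.9) was above ITGA3 (243.3, ranges overlapping) in WT and first in 4 of the 6 groups, and ITGAV was above ITGB3 in both inhibitor groups.

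The share of each gene in the summed level per kb of its chain type showed how the repertoire differed. Among the 5 alpha chains ITGA3 made up 38.8 ± 1.04% in WT, 55.0 ± 2.19% in KDAC6H611A, with 65.98 ± 5.57% for KDAC8H143A (SD over 4 libraries). ITGA6 made up 33.0 ± 0.67% in WT, 19.2% for KDAC6H611A and 14.4% for KDAC8H143A, and 15.7% under Tubastatin A and 12.3% under PCI-34051. The share of ITGA2 was 15.4% in WT, 6.32% in KDAC8H143A, 25.2% under Tubastatin A and 29.7% under PCI-34051. Among the 5 beta chains ITGB1 held 73.2 ± 0.202% in WT and 52.5 ± 5.26% in KDAC8H143A, where ITGB5 held 44.8 ± 5.17% against 24.5% in WT. ITGB3 held 1.40% in WT, 0.603% in KDAC6H216A, 6.48% with Tubastatin A and 7.66% with PCI-34051. These shares are a description. With MANE Select lengths they moved to 88.0% for ITGB1 in WT and to 2.45% and 2.95% for ITGB3 with Tubastatin A and PCI-34051. The shares were not corrected for GC content, with which log2 fold changes moved in KDAC8H143A against WT (Pearson's r = 0.521 over 15897 genes). ITGA3 has 61.3% GC and ITGB5 54.6%, and ITGA6 has 42.5%, ITGA2 40.1% and ITGB1 39.2%. With a GC and length correction ITGA3 was lower than in WT there (log2 fold change −0.86), as was ITGB5 (−0.72). The part of GC content in the shares was not tested.

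**Figure D1:**
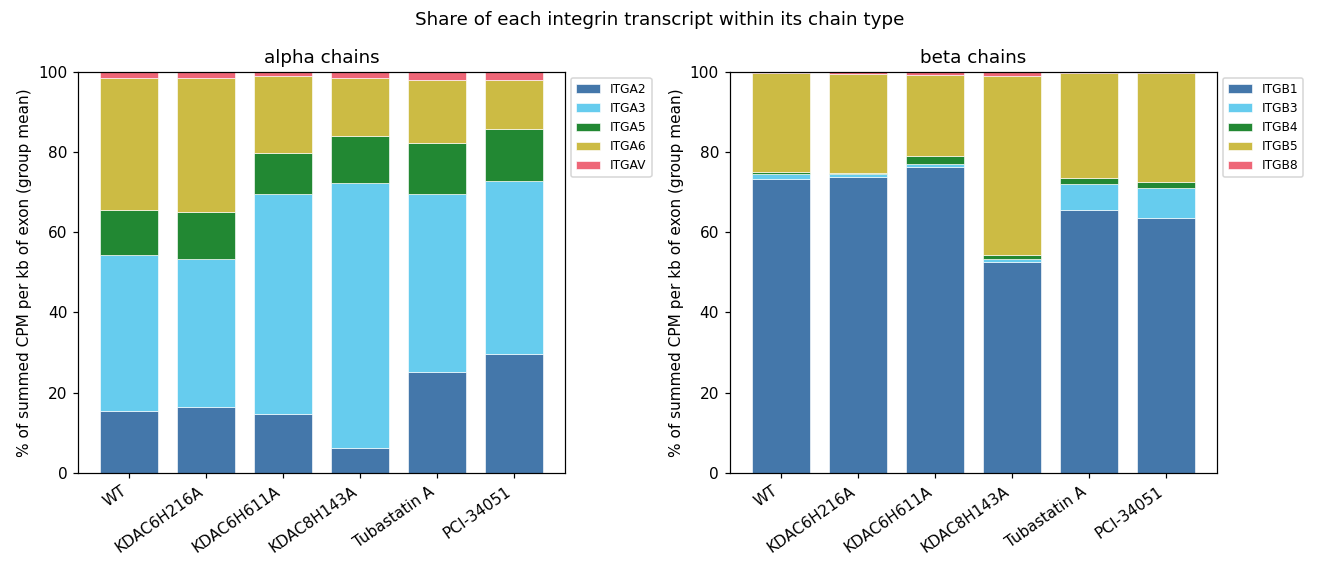
Stacked bars give each gene's share (%) of the summed CPM per kb of exon of the 5 alpha chains (left) and the 5 beta chains (right), as the mean of each group. ITGA3 takes 38.8% of the alpha sum in WT and 65.98% in KDAC8H143A, and ITGB3 takes 1.40% of the beta sum in WT and 7.66% with PCI-34051. The shares are not corrected for GC content.

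Levels below are CPM scaled over all 22 libraries, and fold changes were fitted by edgeR within each pair of groups with their own scaling, so a fold need not equal the ratio of the CPM values. A gene was called at an adjusted p below 0.01, and the 5 comparisons with WT share the same 4 WT libraries. The study calls the samples biological replicates without saying from which cultures they came, so p-values measure the spread between these libraries. In these bulk libraries a lower level in every cell and fewer cells with the transcript cannot be told apart.

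**Figure D2:**
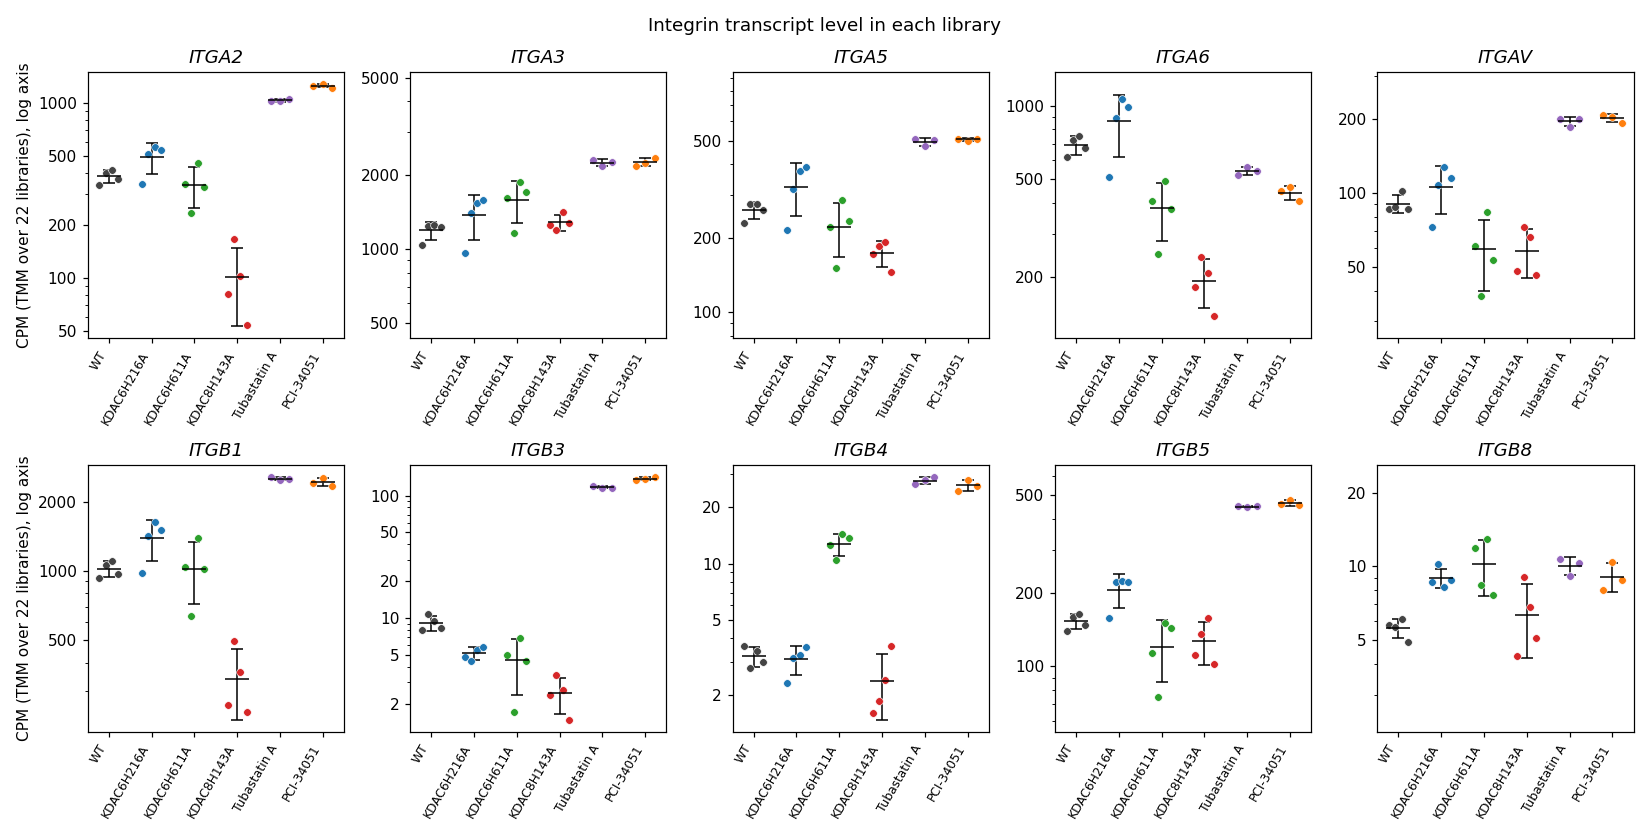
Points give the level (CPM, log axis) of each integrin gene in each of the 22 libraries, with a line and bar for the group mean and SD (n = 4, or 3 for the inhibitors). ITGB3 lies between 115 and 141 CPM in the 6 inhibitor-treated libraries and at or below 10.9 CPM in all others.

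With Tubastatin A, transcripts of nearly all these integrin genes were higher than in WT. All 10 passed the test, with 9 higher and 1 lower. Of the 15246 genes tested, 57.9% were called, 29.3% higher and 28.6% lower, and the median log2 fold change was 0.93 over the 10 genes against −0.003 over all genes tested. With PCI-34051, 8 were called higher, 1 lower and 1 (ITGB8) was not called, against 51.1% of 15346 genes called, 25.5% higher and 25.6% lower. The median there was 0.96 over the 10 genes and −0.01 over all. The doses differed between the compounds, so their values are given side by side and were not compared.

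ITGB3 (ENSG00000259207, chr17:47253827-47313743, plus strand), the beta chain of the vitronectin receptor alpha v beta 3, changed most. It was at 8.07, 10.9, 9.50 and 8.30 CPM in WT, at 119, 116 and 115 CPM with Tubastatin A and at 135, 136 and 141 CPM with PCI-34051. The treated libraries lay far above every WT library. The log2 fold change was 3.37 ± 0.0646 (SE, adjusted p = 2.889e-18) with Tubastatin A and 3.64 ± 0.0742 (adjusted p = 4.621e-16) with PCI-34051, or 10.3-fold and 12.5-fold. Part of ITGB3 is shared with a read-through gene (ENSG00000259753), which took at most 0.340% and 1.15% of the summed count of both in these 2 groups.

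ITGB4 (ENSG00000132470, chr17:75721328-75757818, plus strand), the hemidesmosome beta chain, was low in WT at 3.65, 2.78, 3.41 and 2.99 CPM, which were 19 to 28 counts per library. It reached 26.6, 27.8 and 28.9 CPM with Tubastatin A (log2 fold change 2.85 ± 0.116, adjusted p = 1.12e-13) and 24.5, 28.0 and 25.9 CPM with PCI-34051 (2.80 ± 0.126, adjusted p = 5.545e-12). ITGA6 (ENSG00000091409, chr2:172427354-172506459, plus strand), its only alpha partner, fell in the same cells. Its level was 618, 721, 752 and 669 CPM in WT, 523, 564 and 541 CPM with Tubastatin A and 447, 465 and 407 CPM with PCI-34051, with no overlap with WT in either. The log2 fold change was −0.63 ± 0.0469 (adjusted p = 7.255e-10) and −0.90 ± 0.0586 (adjusted p = 6.412e-10). With all 6 groups in one edgeR fit the Tubastatin A value was −0.51 (adjusted p = 0.05452) and the call was lost.

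ITGB5 (ENSG00000082781, chr3:124761948-124901418, minus strand), the other main beta partner of alpha v, went from 140 to 164 CPM in WT to 446 to 452 CPM with Tubastatin A (log2 fold change 1.27 ± 0.0445, adjusted p = 1.21e-14) and 457 to 479 CPM with PCI-34051 (1.36 ± 0.0542, adjusted p = 1.215e-12). ITGAV (ENSG00000138448, chr2:186590010-186680901, plus strand), the alpha v chain, rose from 85.9 to 102 CPM in WT to 187 to 201 and 194 to 209 CPM (log2 fold changes 0.83 and 0.91). ITGB8 (ENSG00000105855, chr7:20330702-20415754, plus strand), whose dimer with alpha v activates latent TGF-beta, was at 5.76, 5.68, 6.09 and 4.90 CPM in WT, 10.7, 9.10 and 10.3 CPM with Tubastatin A and 8.01, 10.4 and 8.84 CPM with PCI-34051. Its antisense gene ITGB8-AS1 took up to 7.78% of the summed count of both over all libraries. The log2 fold change of ITGB8 passed with Tubastatin A (0.56 ± 0.132, adjusted p = 0.0009682) and not with PCI-34051 (0.45 ± 0.149, adjusted p = 0.01343). The Tubastatin A call of ITGB8 was lost with all 6 groups in one fit (adjusted p = 0.01474) and with a correction for GC content and gene length (0.36, adjusted p = 0.02339).

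The collagen receptor was higher in both chains. ITGA2 (ENSG00000164171, chr5:52989340-53094779, plus strand) was at 340, 400, 416 and 369 CPM in WT, 1020, 1030 and 1050 CPM with Tubastatin A and 1250, 1280 and 1220 CPM with PCI-34051 (log2 fold changes 1.15 ± 0.0446, adjusted p = 5.984e-14, and 1.46 ± 0.0535, adjusted p = 3.862e-13). ITGB1 (ENSG00000150093, chr10:32887273-33005792, minus strand) was at 930, 1060, 1110 and 975 CPM in WT, 2550, 2490 and 2520 CPM with Tubastatin A and 2420, 2530 and 2330 CPM with PCI-34051 (1.02 ± 0.0425, adjusted p = 1.631e-13, and 1.00 ± 0.0502, adjusted p = 2.127e-11). A processed pseudogene, ITGB1P1, took at most 1.10% of their summed count in these groups. ITGA3 (ENSG00000005884, chr17:50055968-50090481, plus strand) and ITGA5 (ENSG00000161638, chr12:54395261-54419266, minus strand), the alpha chains of the laminin and fibronectin receptors, were both called higher, ITGA3 at 0.64 and 0.68 and ITGA5 at 0.64 and 0.71 on the log2 scale with Tubastatin A and PCI-34051.

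**Figure D3:**
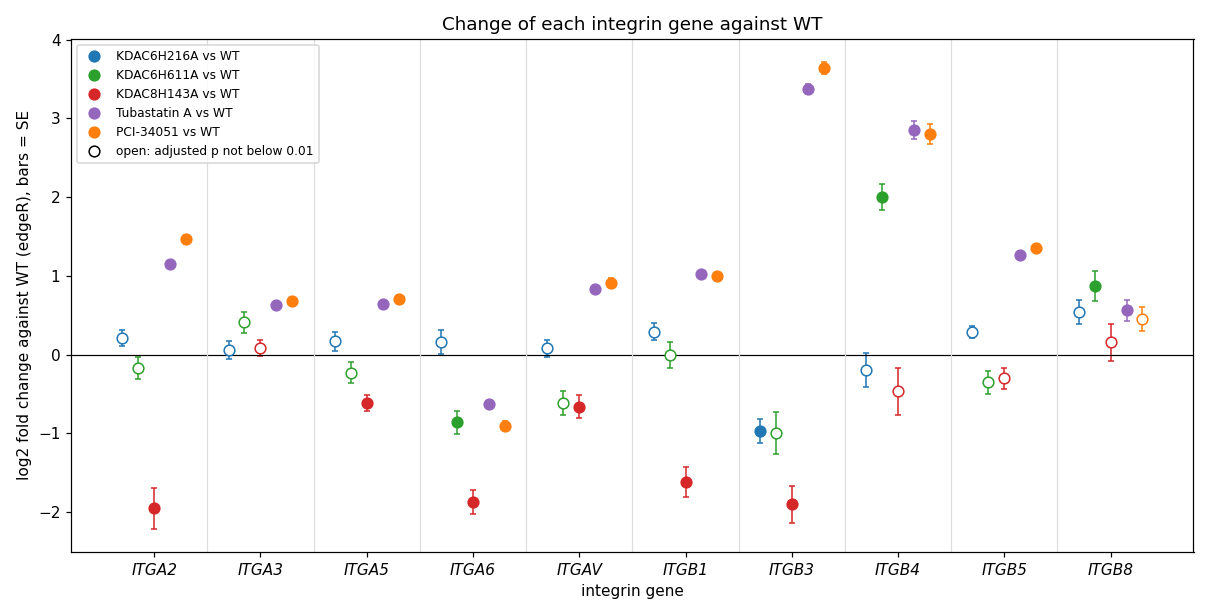
Points give the log2 fold change of each integrin gene in each group against WT, with bars for the SE, and open points mark an adjusted p not below 0.01. ITGB3 lies at 3.37 and 3.64 with the inhibitors and between −1.90 and −0.965 in the 3 mutant lines, and ITGA6 lies below 0 in the 4 groups other than KDAC6H216A.

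In the KDAC8H143A line ITGA2, ITGA5, ITGA6, ITGAV, ITGB1 and ITGB3 were lower than in WT, while ITGA3, ITGB4, ITGB5 and ITGB8 were not called. Of the 10 genes 6 were called, each of them lower. Of the 16101 genes tested 58.5% were called, 31.6% higher and 26.9% lower, so the share of integrin genes called was near that of all genes, while none of them was called higher. The median log2 fold change was −0.64 over the 10 genes and 0.08 over all.

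ITGA2 was at 81.1, 167, 103 and 53.8 CPM in the KDAC8H143A libraries, all below the lowest WT library at 340 CPM, and its log2 fold change was −1.95 ± 0.261 (adjusted p = 4.752e-05). ITGB1 was at 262, 494, 363 and 244 CPM (−1.61 ± 0.191, adjusted p = 2.061e-05), also clear of WT. ITGB1P1 took 2.63 to 8.51% of their summed count in this line against 0 to 1.497% in WT, and with both summed the value was −1.54 (adjusted p = 2.196e-05). The gene and its copy share sequence, so their reads cannot be fully separated.

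ITGA6 was at 181, 242, 208 and 139 CPM in KDAC8H143A, against 618 CPM or more in WT (−1.87 ± 0.1498, adjusted p = 1.674e-06). ITGB3 was at 2.36, 3.44, 2.61 and 1.49 CPM, from 18.5 to 70 counts per library (−1.90 ± 0.236, adjusted p = 2.855e-05). The read-through gene took 0 to 47.1% of the summed count with ITGB3 in this line, and the sum gave −1.66 (adjusted p = 1.733e-05). ITGA5, at 145 to 193 CPM (−0.61 ± 0.106, adjusted p = 0.0002995), and ITGAV, at 46.4 to 72.8 CPM (−0.66 ± 0.144, adjusted p = 0.001446), were also called lower.

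ITGA3, the most abundant alpha chain, was at 1250, 1200, 1420 and 1270 CPM in KDAC8H143A against 1040, 1240, 1250 and 1230 CPM in WT and was not called (0.08 ± 0.102, adjusted p = 0.5021). ITGB5 (−0.30, adjusted p = 0.06036), ITGB4 (−0.47, adjusted p = 0.1752) and ITGB8 (0.16, adjusted p = 0.5643) were not called either. In this comparison the log2 fold change moved with the GC content of a gene (Pearson's r = 0.521 over 15897 genes, which are not independent). The integrin genes span 33.5% GC in ITGAV to 63.6% in ITGB4. With a correction for GC content and gene length all 10 were called, with ITGA3 at −0.86 (adjusted p = 5.974e-05) and ITGAV turned to 0.45 (adjusted p = 0.006341), while ITGA2, ITGA6, ITGB1, ITGB3 and ITGA5 kept their direction. The correction also moved ITGB4 to −1.56, ITGB5 to −0.72 and ITGB8 to 0.92. Over all genes it called 4323 higher and 3303 lower of 15897. With scaling by total count alone, ITGA5 (−0.32, adjusted p = 0.05028) and ITGAV (−0.36, adjusted p = 0.08836) lost their call.

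In the KDAC6H611A line ITGB4 and ITGB8 were higher than in WT and ITGA6 was lower. These 3 of the 10 genes were called, 2 higher and 1 lower, against 12.3% of 14725 genes called, 6.08% higher and 6.24% lower. ITGB4 was at 12.5, 10.4, 14.4 and 13.7 CPM (67 to 159 counts per library), all above the WT range of 2.78 to 3.65 CPM, with a log2 fold change of 2.00 ± 0.169 (adjusted p = 6.215e-06), or 4.01-fold. ITGA6 was at 407, 249, 492 and 379 CPM, all below WT (−0.86 ± 0.148, adjusted p = 0.001232), and this call was lost with scaling by total count alone (−0.83, adjusted p = 0.03546). As with the inhibitors, the transcripts of the beta 4 chain and of its alpha partner were called in opposite directions.

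ITGB8 was at 11.9, 8.40, 13.01 and 7.62 CPM in KDAC6H611A and clear of WT (0.88 ± 0.192, adjusted p = 0.005834). The call was lost when any 1 of the WT libraries, or KDAC6H611A replicate 1 or 3, was left out (adjusted p up to 0.02569). ITGB3, at 5.01, 1.71, 6.96 and 4.48 CPM (−0.99 ± 0.269, adjusted p = 0.01889), and ITGAV, at 60.8, 38.1, 83.8 and 53.5 CPM (−0.62 ± 0.155, adjusted p = 0.01302), did not overlap with WT and missed the threshold. For ITGB3, the read-through gene took up to 43.9% of their summed count here, and the sum passed (−0.90, adjusted p = 0.006266). ITGA3 (0.41, adjusted p = 0.0442), ITGB5 (−0.35), ITGA5 (−0.23), ITGA2 (−0.17) and ITGB1 (−0.002) were not called. Without KDAC6H611A replicate 2, the library with 38.0% mitochondrial ribosomal RNA, 6 genes were called, with ITGA3 at 0.49 (adjusted p = 0.000464), ITGAV at −0.50 (adjusted p = 0.003229) and ITGB3 at −0.78 (adjusted p = 0.003244) in addition. Over all genes that fit called 1435 higher and 1473 lower of 14981, against 895 and 919 of 14725 with it.

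In the KDAC6H216A line ITGB3 was the only integrin gene called, and it was lower. That is 1 of 10 genes, against 0.834% of 14500 genes called, 0.214% higher and 0.621% lower. ITGB3 was at 4.86, 4.47, 5.55 and 5.80 CPM (40.5 to 61 counts per library), all below WT, with a log2 fold change of −0.965 ± 0.1502 (adjusted p = 0.009654). The call stood just inside the threshold. It was lost when any 1 of 7 of the 8 libraries was left out (all but KDAC6H216A replicate 1, adjusted p up to 0.04997), with all 6 groups in one fit (adjusted p = 0.02899), with scaling by total count alone (−0.80, adjusted p = 0.01625) and with the read-through gene summed in (−0.91, adjusted p = 0.01089), while the direction stayed. ITGB8, at 8.63, 10.2, 8.24 and 8.84 CPM, was above every WT library and was not called (0.54 ± 0.149, adjusted p = 0.114).

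The remaining genes differed from WT by −0.19 to 0.29 on the log2 scale in KDAC6H216A, with ITGB1 at 0.29 (adjusted p = 0.2599), ITGB5 at 0.29 (adjusted p = 0.111), ITGA2 at 0.21, ITGA5 and ITGA6 at 0.17, ITGAV at 0.08, ITGA3 at 0.06 and ITGB4 at −0.19. Of the 10 genes 4 had an unadjusted p below 0.05, against 13.4% of all genes tested. Replicate 1 was low for most of them. ITGB1, for example, was at 978 CPM there and at 1420, 1630 and 1510 CPM in the other 3 libraries. Without it, 6 genes were called, with ITGA2 (0.30), ITGA5 (0.28), ITGA6 (0.31), ITGB1 (0.38) and ITGB5 (0.35) higher and ITGB3 lower. Over all genes that fit called 1786 higher and 2027 lower of 14638, against 31 and 90 of 14500 with it, so calls became more frequent among all genes as well. The part of its mitochondrial ribosomal RNA content in this was not tested.

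The 2 KDAC6 lines were compared directly, since a call in one line alone does not show that they differ. ITGB4 was higher in KDAC6H611A than in KDAC6H216A (2.31, 3.15, 3.26 and 3.61 CPM) by 2.15 ± 0.160 on the log2 scale (adjusted p = 2.872e-05), and ITGA6 was lower, at −1.06 ± 0.208 (adjusted p = 0.00621). These were 2 of the 10 genes, against 9.93% of 14961 genes called, 4.61% higher and 5.31% lower. The ITGA6 call was lost without any 1 of 6 of the 8 libraries (all but KDAC6H216A replicate 1 and KDAC6H611A replicate 3, adjusted p up to 0.02893) and with scaling by total count alone (adjusted p = 0.01482). ITGB5 (−0.67, adjusted p = 0.01755) and ITGAV (−0.73, adjusted p = 0.02067) missed the threshold. Without KDAC6H216A replicate 1 both passed (−0.74, adjusted p = 0.006217, and −0.84, adjusted p = 0.004248). ITGB3 differed by −0.08 ± 0.313 between them (adjusted p = 0.8761). ITGA2 (−0.41), ITGA5 (−0.43), ITGB1 (−0.33), ITGA3 (0.33) and ITGB8 (0.30) were not called.

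Ratios of counts within a library do not depend on how libraries are scaled to each other, and 3 were followed. They were not corrected for GC content, with which fold changes moved in KDAC8H143A (Pearson's r = 0.521). ITGB4 has 63.6% GC and ITGB1 39.2%, and ITGA5 has 54.5% and ITGA6 42.5%. The read-through gene took up to 43.9% of its summed count with ITGB3 in KDAC6H611A and 47.1% in KDAC8H143A, and was not added. The part of either in the ratios was not tested. The log2 ratio of ITGB3 to ITGB5, which share alpha v as partner, was −4.05 ± 0.127 in WT (SD, n = 4) and differed from it by −1.24 for KDAC6H216A, by −0.77 for KDAC6H611A, by −1.63 for KDAC8H143A, by 2.11 for Tubastatin A and by 2.29 for PCI-34051. For ITGB4 to ITGB1, which share alpha 6 as partner, WT was at −8.29 ± 0.244 and the differences were −0.50, 2.00, 1.13, 1.78 and 1.75 in the same order. For ITGA5 to ITGA6, a fibronectin against a laminin chain, WT was at −1.41 ± 0.0369 and the differences were 0.01, 0.64, 1.28, 1.27 and 1.61. In a two-sided exact permutation test over libraries, the mutant lines reached p = 0.0286, the smallest that 4 against 4 allows, except ITGB4 to ITGB1 in KDAC8H143A (p = 0.0571) and ITGA5 to ITGA6 in KDAC6H216A (p = 0.8286). The inhibitor groups reached p = 0.0571 in the exact test, the smallest that 3 against 4 allows. After adjustment over the 15 tests the exact values were 0.0612 or above, so none passed 0.05.

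**Figure D4:**
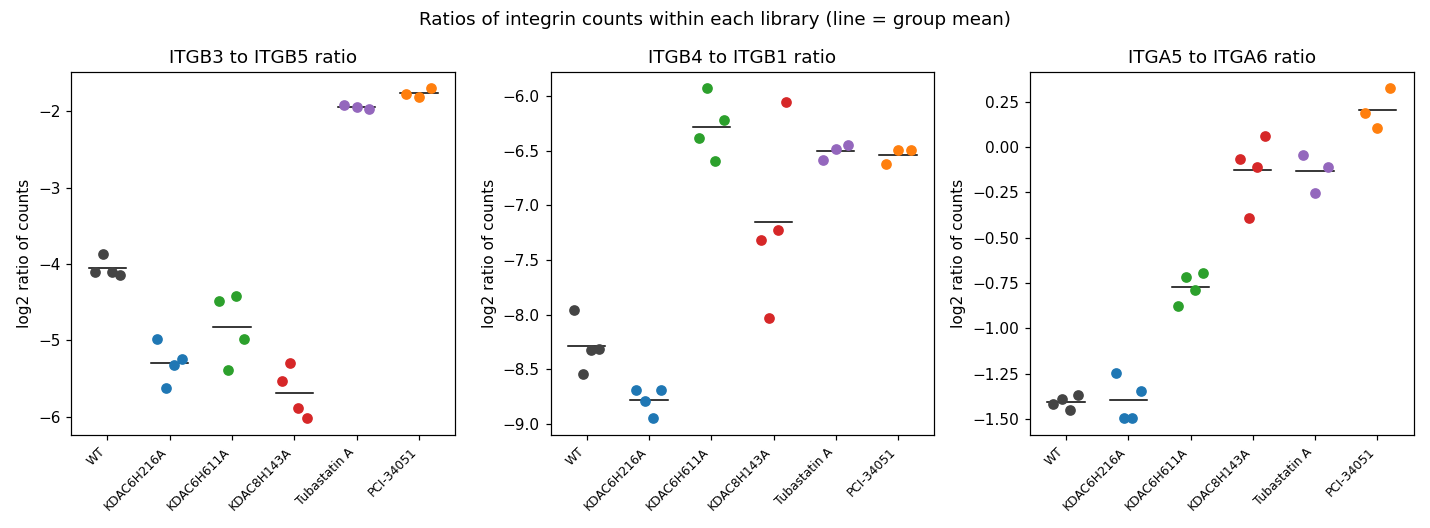
Points give the log2 ratio of 2 integrin genes' counts in each library and lines the group mean. The ratios are not corrected for GC content. The ITGB3 to ITGB5 ratio lies between −4.15 and −3.86 in WT, at −4.42 or lower in the 3 mutant lines and at −1.97 or higher in the inhibitor groups.

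Some of these genes kept step across libraries. Over the 22 libraries, which share groups and depth, Pearson's r of log2 CPM was 0.992 for ITGA2 and ITGB1, 0.970 for ITGAV and ITGB5 and 0.969 for ITGA5 and ITGAV. ITGA6 and its partner ITGB4 had r = 0.0735. After centring on group means, ITGA2 and ITGB1 had r = 0.947, and ITGB4 had r between −0.125 and 0.484 with the other 9 genes. ITGA2 and ITGB1 did not stand alone there, with ITGAV and ITGB1 at 0.959 and ITGA5 and ITGA6 at 0.938. ITGB3 and ITGA2 differed most between group means (by 5.84 and 3.75 on the log2 scale). Of 15627 genes, those most like ITGB3 over the 22 libraries included VCAN (r = 0.986), a matrix proteoglycan, and FN1 (r = 0.985), fibronectin. Those most like ITGA2 were CD109 (r = 0.994), ITGB1 (r = 0.992) and ADAM17 (r = 0.989), a sheddase. Over the 6 group means the closest included PCSK1 and FN1 for ITGB3 and were RAB31, KCNJ2 and HBP1 for ITGA2.

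The other integrin subunits, 16 genes of which 7 or 8 could be tested, moved in both directions. Fold changes of these genes and of the lists below were not corrected for GC content. In KDAC8H143A against WT fold changes moved with it (Pearson's r = 0.521 over 15897 genes), and its part in those values was not tested. With Tubastatin A 4 were called higher and 2 lower, and with PCI-34051 also 4 and 2, against 57.9% and 51.1% of all genes called, with medians of 1.31 and 0.82 on the log2 scale (−0.003 and −0.01 over all genes). ITGA11, a collagen-binding alpha chain, was at a mean of 14.4 CPM in WT, 10.3 for KDAC6H216A, 28.3 for KDAC6H611A, 3.05 for KDAC8H143A, 135.3 under Tubastatin A and 193.8 under PCI-34051. It was called higher in KDAC6H611A (0.99), lower in KDAC8H143A (−2.24) and higher with both inhibitors (2.97 and 3.52). ITGA1, also collagen-binding, was higher with both inhibitors (1.51 and 1.42) and lower in KDAC8H143A (−0.90), and ITGA4, which binds fibronectin and VCAM-1, did the same (1.31, 0.82 and −1.06) and was also lower in KDAC6H611A (−0.85).

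ITGB2, the leukocyte beta chain, fell from 14.7 CPM in WT to 4.28 CPM in KDAC6H611A and 9.32 in KDAC8H143A, and to 1.77 under Tubastatin A and 1.45 under PCI-34051 (log2 fold changes −1.76, −0.69, −3.34 and −3.59). ITGAX, an alpha partner of ITGB2, was at 2.10 CPM in WT and was called higher in the same 4 groups (2.64, 1.60, 1.57 and 1.36). ITGA10 was lower with both inhibitors (−0.82 and −0.84). ITGA7, at 0.459 CPM in WT, was higher in KDAC8H143A (2.51), and ITGAE (2.96 to 4.91 CPM) was called in none of the comparisons. In KDAC6H216A none of the 7 tested was called by edgeR, against 0.834% of all genes tested. Of the 7, ITGA11 (−0.61, edgeR adjusted p = 0.1017) was furthest from 0. Between the KDAC6 lines ITGA11 (1.57) and ITGAX (2.15) were higher and ITGB2 (−1.34) lower in KDAC6H611A.

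Among 33 genes for integrin ligands, of which 25 to 27 were tested, 18 were called higher and 5 lower with each inhibitor, 5 higher and 12 lower in KDAC8H143A, 4 higher and 5 lower in KDAC6H611A and 2 lower in KDAC6H216A. Over all genes 57.9% were called with Tubastatin A, 51.1% with PCI-34051, 58.5% in KDAC8H143A, 12.3% in KDAC6H611A and 0.834% in KDAC6H216A, and the KDAC8H143A share of ligand genes was near its background. Split into higher and lower, the shares of all genes were 29.3% and 28.6% with Tubastatin A and 25.5% and 25.6% with PCI-34051. They were 31.6% and 26.9% in KDAC8H143A. FN1 was at a mean of 684.5 CPM in WT, 2561 with Tubastatin A (1.62) and 3297 with PCI-34051 (2.02), and was called higher with both. Where a gene is given here for 1 compound alone, it was among the largest changes of its list there, and its value with the other compound is not shown. LAMA2 (2.51 and 1.81) and COL1A1 (1.71, Tubastatin A) also rose with an inhibitor, while LAMB3 (−0.57, Tubastatin A) and LAMA1 (−0.88, PCI-34051), which encode laminin chains, fell. In KDAC8H143A, without a correction for GC content, COL5A1 (2.37) and COL1A1 (2.06) rose and LAMA4 (−1.58) fell. COL1A2 had a mean of 0.0613 CPM there against 2.19 in WT. In KDAC6H611A LAMB1 (0.92) and LAMB2 (0.83) rose and LAMA3 (−2.33) and THBS1 (−1.47) fell, and in KDAC6H216A the basement membrane collagen COL4A1 (−0.66) and COL6A2 (−0.52) fell. Between the KDAC6 lines 5 ligand genes were called higher and 3 lower in KDAC6H611A, against 9.93% of 14961 genes called.

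Of 7 hemidesmosome partners of beta 4, all tested, 3 were called higher and 4 lower with Tubastatin A, 2 and 3 with PCI-34051, 1 and 1 in KDAC8H143A and in KDAC6H611A, and none by edgeR in KDAC6H216A, against 57.9%, 51.1%, 58.5%, 12.3% and 0.834% of all genes called in the same order. LAMA3, a chain of the laminin that alpha 6 beta 4 binds, rose with the inhibitors (1.60 and 1.79) and fell in KDAC8H143A (−1.20). CD151, a tetraspanin bound to laminin-binding integrins, rose with the inhibitors (0.69 and 0.76). COL17A1, a hemidesmosome collagen, fell with them (−1.68 and −2.11) and rose in KDAC6H611A (0.74). PLEC, which ties beta 4 to intermediate filaments, was at 3538 CPM in KDAC8H143A and 1463 in WT (1.25). The KDAC8H143A values of PLEC and LAMA3 were not corrected for GC content.

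Of 22 genes that activate or inhibit integrins, 20 or 21 were tested, of which 12 were called higher and 2 lower with Tubastatin A, 9 and 3 with PCI-34051, 2 and 8 in KDAC8H143A, 0 and 5 in KDAC6H611A and 0 and 2 in KDAC6H216A. The shares of all genes called were again 57.9%, 51.1%, 58.5%, 12.3% and 0.834%, so the count in KDAC8H143A lay below its background. Rises with an inhibitor were led by CD82 (0.96 and 0.82), RAP1A (0.82, Tubastatin A) and SDC4 (0.88, PCI-34051), and falls with PCI-34051 by CD9 (−1.02) and TLN2 (−0.67). FLNC, a filamin, was at 145 CPM in WT, 80.8 CPM in KDAC6H216A (−0.99) and at most 4 counts per library in KDAC6H611A. CD9, a tetraspanin, was at 6.95 CPM in WT, 3.33 CPM in KDAC6H216A (−1.20), 0 counts in the 4 KDAC6H611A libraries, which allows up to 0.410 CPM, and at most 1 count per library in KDAC8H143A. In KDAC8H143A FERMT3 (2.39) and SHARPIN (0.83) rose and CD47 (−1.89) fell, without a correction for GC content.

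Of 34 adhesion adaptors and kinases, 33 were tested, of which 18 were called higher and 3 lower with Tubastatin A, 14 and 3 with PCI-34051, 11 and 10 in KDAC8H143A, 1 and 2 in KDAC6H611A and 0 and 1 in KDAC6H216A. Against the same shares of all genes, the totals called were near background with Tubastatin A (57.9%) and PCI-34051 (51.1%). They were also near it in KDAC8H143A (58.5%) and KDAC6H611A (12.3%). By direction, 29.3% of all genes were called higher and 28.6% lower with Tubastatin A, and 25.5% and 25.6% with PCI-34051. In the list higher calls outnumbered lower ones with both inhibitors. TES, a focal adhesion protein, was higher with the inhibitors (1.33 and 1.37) and in KDAC6H611A (0.84) and lower in KDAC8H143A (−2.28). LPXN (1.11 and 1.09), a paxillin relative, rose with the inhibitors and GIT1 (−0.62 and −0.68) fell with them, as did TNS2 (−0.65) with Tubastatin A. PTK2B (1.64), a kinase related to FAK, and TNS2 (1.32) rose in KDAC8H143A, where PARVA (−1.75) fell. The KDAC8H143A values of this list were not corrected for GC content. In KDAC6H611A TNS3 (−0.99) and LIMS1 (−0.66) fell, and in KDAC6H216A TNS1 (−0.72) fell. These lists were counted and not tested as sets.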

How the data were processed

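RNA from HT1080 cells was depleted of ribosomal RNA and sequenced from both ends. Per the study's methods, the authors trimmed reads with Trimmomatic 0.39, aligned them to GRCh38 with Bowtie2 2.4.5 and estimated expected counts per gene with RSEM 1.3.3, which splits reads shared between genes. The authors used DESeq2 1.38.2. The annotation release and strand setting are not given in the sources used here, so overlapping and antisense genes cannot be told apart. The deposited expected counts, 10.6 to 13.5% of them not whole, were rounded. The 10 genes and the lists were chosen with earlier results of these data known.

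All genes were fitted with edgeR 4.0.16 (R 4.3.3) for each pair of groups, with TMM scaling, filterByExpr and the quasi-likelihood test. P-values were adjusted by Benjamini-Hochberg over all genes tested and called below 0.01. SE is the log2 fold change over the root of F. CPM used TMM over 22 libraries (prior count 0.5 on the log scale), and exon lengths and GC content came from GENCODE 44. Ratios had 0.5 added to counts. Limits that a count of 0 allows are 3 counts over the library total without TMM scaling and cover counting error only. The fit was tested on simulated data. Of each list, the genes named were up to 2 called with the largest rise and 2 with the largest fall against WT, provided the higher group reached 1 CPM and the groups were apart, besides every other subunit at 1 CPM or more. Some genes that this rule or the likeness to ITGB3 picked are not reported here. Alternatives were DESeq2 1.42.0, upper quartile and total count scaling, filters, thresholds, one fit of 6 groups, a GC and length correction (mgcv 1.9.3), a replicate block and each library left out. Summed counts of overlapping genes and MANE Select lengths were added after seeing the data.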

Additional observations from a re-analysis of the deposited data

Results flagged for a closer look

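In 3 of the 40 groups of 4 libraries examined (10 genes in 4 groups), 1 library stood apart from the others by more than Dixon's 95% critical value for 4 samples, and chance alone flags about 1 in 20 groups. ITGA3 was at 1040 CPM in WT replicate 1, below the other 3 WT libraries at 1230 to 1250 CPM. ITGAV was at 102 CPM in WT replicate 3, above the others at 85.9 to 87.6 CPM. ITGB5 was at 158 CPM in KDAC6H216A replicate 1, below the others at 221 to 223 CPM.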

How the results depend on the processing

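With Tubastatin A 5 of the integrin genes, and with PCI-34051 5, also changed by at least 1 on the log2 scale. Over all genes that limit left 1126 higher and 1142 lower of 15246 with Tubastatin A, and 1042 and 989 of 15346 with PCI-34051. In KDAC6H216A 0 integrin genes were called with that limit, against 16 higher and 63 lower of 14500 genes. The number was also 0 with at least 10 counts in every library (23 and 59 of 12813 genes). With all 6 groups in one edgeR fit it was 0 (77 and 138 of 18480 genes). The replicate block alone gave 0 (16 and 50 of 14500 genes). With the GC and length correction added to the block it was 0 as well (14 and 45 of 14358 genes). With 1 library left out 0 to 6 were called (6 without KDAC6H216A replicate 1, against 1786 higher and 2027 lower of 14638 genes). In the main KDAC6H216A fit 4 integrin genes had an unadjusted p below 0.05, against 13.4% of all genes tested. DESeq2 called 1 integrin gene there, against 150 higher and 217 lower of 14500 genes. In KDAC6H611A 6 integrin genes were called at an adjusted p below 0.05, against 1699 higher and 1684 lower of 14725 genes. The limit on size left 1 (472 and 266 over all genes), and DESeq2 called 6 (1132 and 1201). Total counts gave 1 (549 and 364 over all genes) and no filter 5 (1250 and 1218 of 31966). Leaving out 1 library gave 2 to 6, with 6 without KDAC6H611A replicate 2 (1435 and 1473 of 14981 genes). Between the KDAC6 lines 4 integrin genes were called at 0.05, against 1432 higher and 1677 lower of 14961 genes. DESeq2 called 4 (1161 and 1331 over all genes), and total counts gave 1 (375 and 406). All 6 groups in one fit gave 4 (1397 and 1985 of 18480 genes). The replicate block gave 1 (453 and 477 over all genes), and 1 with the correction added (406 and 403 of 14805). ITGA6 lost its call with the block, at −1.05 (adjusted p = 0.01321), and with the correction added, at −0.94 (adjusted p = 0.01709). Leaving out 1 library gave 1 to 4, with 4 without KDAC6H216A replicate 1 (1530 and 1511 of 15615 genes). In KDAC8H143A 10 integrin genes were called with the GC and length correction, against 4323 higher and 3303 lower of 15897 genes. The number was also 10 with the block added (4228 and 3347 over all genes). The direction turned there for ITGA3 (−0.86, with the block −0.88) and ITGAV (0.45, with the block 0.44). The cause of these changes was not tested.

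The replicate numbers did not pair the samples (mean correlation of deviations −0.0316 to 0.168). With the block, KDAC6H611A had 4 integrin genes called and KDAC8H143A 6, Tubastatin A 10 and PCI-34051 9. Over all genes the block gave 754 higher and 805 lower of 14725 in KDAC6H611A and 4908 and 4286 of 16101 in KDAC8H143A. It gave 3917 and 3794 of 15246 with Tubastatin A and 3556 and 3578 of 15346 with PCI-34051. Scaling by total count shifted the all-gene median (log2) to 0.17 (KDAC6H216A), 0.36 (KDAC8H143A), 0.35 (Tubastatin A), 0.38 (PCI-34051) and −0.12 (KDAC6H611A against KDAC6H216A), and upper quartile scaling moved the last to 0.12. With total counts 358 genes were called higher and 85 lower in KDAC6H216A (31 and 90 with TMM), 6481 and 2494 in KDAC8H143A (5093 and 4326), 7910 and 1846 with Tubastatin A (4461 and 4360) and 7893 and 1477 with PCI-34051 (3911 and 3924). Depth limits ITGB4 in WT (19 to 28 counts per library) and ITGB3 in KDAC6H611A (10.99 to 77).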
